A study of Mus musculus with 18 samples.

Results

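The 9 genes described here belong to the mesenchymal programme and were followed across 6 groups of mouse mammary cells: the transcription factors Zeb1, Zeb2, Snai1, Snai2, Twist1, Twist2 and Prrx1, and 2 structural genes that mark the mesenchymal state, Vim and Cdh2. They were listed by symbol, and each was read by a probe set annotated to that gene alone, taking the brightest on average over the 18 arrays where there were several. All 9 of 9 listed genes were measured, of 19938 genes in all, and each had exactly 1 such probe set.

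Each group had 3 arrays. Comma-D, a line of normal mouse mammary epithelium, is labelled erbB2-negative and negative for phosphorylated erbB2. MMTV-neu, a tumour line whose neu (erbB2) oncogene is driven by the mouse mammary tumour virus promoter, is labelled cancer and positive for both. The other 4 groups were sorted from co-cultures of these lines at 1:50 and 1:1 on a magnetic column after labelling with an erbB2 antibody. Both erbB2-negative fractions are labelled normal. The 1:50 erbB2-positive fraction is labelled redirected, positive for erbB2 and negative for its phosphorylated form, and the 1:1 erbB2-positive fraction is labelled cancer and positive for both. The labels do not settle which line supplies the 50 parts. The co-cultures and Comma-D shared a medium with low serum, insulin and EGF, while MMTV-neu was grown with more serum, so line and medium cannot be told apart in comparisons with MMTV-neu. Nothing states that replicates were separate cultures, so the p-values measure the spread between these samples, which may be technical.

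An epithelial to mesenchymal transition is the loss of epithelial junctions and the gain of a motile, matrix-producing state. Zeb1 and Zeb2 are zinc-finger and homeodomain repressors, Snai1 (Snail) and Snai2 (Slug) are zinc-finger repressors, and both families bind E-box sequences in promoters of epithelial genes such as Cdh1. Twist1 and Twist2 are basic helix-loop-helix factors, and Prrx1 is a homeobox factor of limb and craniofacial mesenchyme. Vim encodes the intermediate filament vimentin and Cdh2 encodes N-cadherin, both typical of mesenchymal cells. In the mammary gland Snai2 is also a factor of basal epithelial cells, and vimentin is also found in basal cells and in many cultured lines.

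The arrays differed in ways that touch all results. Values are on the log2 scale, and the median of an array was 6.33 to 6.36 in Comma-D and 6.77 to 6.79 in MMTV-neu, while the mean standard deviation over genes of an array was 1.86 and 1.27. Among genes in the top 25% of Comma-D levels, as were Zeb1, Snai1, Snai2, Vim, Cdh2 and Prrx1, the median difference of MMTV-neu minus Comma-D was -1.37, so lower values in MMTV-neu were the rule for well expressed genes. The mean of 10 reference genes was 10.43 for Comma-D, 9.31 for the 1:1 erbB2-positive fraction and 9.02 for MMTV-neu. Actb, a cytoskeletal actin, fell by 3.94 (SE 0.15) in MMTV-neu. Directions were therefore checked after quantile normalization and after centring arrays on the reference genes, which moved the median difference of all genes between the lines by -0.30 and 1.40.

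The epithelial identity of the cells was mixed. Comma-D had Epcam at 9.53 ± 0.07 (SD, n = 3) and Cdh1 at 9.41 ± 0.07 together with the basal keratin Krt14 at 10.98 ± 0.02. MMTV-neu had the luminal keratin Krt8 at 11.34 ± 0.12 against 7.41 ± 0.28 in Comma-D, but Epcam at 5.88 ± 0.16, under the medians of its arrays. Krt18, another luminal keratin, was lower in MMTV-neu as deposited, at -0.77 (SE 0.10, limma adjusted p = 2.38e-06). It was at 0.29 (adjusted p = 0.0276) after quantile normalization and 0.63 (adjusted p = 0.0027) after centring. Of 8 luminal markers 4 were higher and 4 lower in MMTV-neu as deposited, beside 56.4% and 30.4% of all genes. RNA of Erbb2, the gene of the antigen used for sorting, lay between 7.80 and 8.27 in all group means as deposited. Whether its probe set also reads the neu oncogene of MMTV-neu was not tested. Differences in Erbb2 follow with the limma adjusted p in brackets. MMTV-neu minus Comma-D was -0.14 (0.184) as deposited, 0.59 (0.000472) after quantile normalization and 1.26 (1.23e-06) after centring. The 1:1 erbB2-positive fraction was lower than Comma-D as deposited, at -0.32 (0.00649), but higher after these scalings, at 0.32 (0.0372) and 0.79 (0.000539). Against the 1:1 erbB2-negative fraction it was at 0.0760 (0.513) as deposited, then at 0.38 (0.0238) and 0.78 (0.000793). The erbB2-positive minus the erbB2-negative fraction at 1:50 was -0.0524 (0.813) as deposited, then 0.15 (0.9997) and 0.17 (0.579). Krt8 in the fractions was at 7.90 ± 0.28 (1:50 erbB2-negative), 10.76 ± 0.33 (1:1 erbB2-negative), 10.37 ± 0.34 (1:50 erbB2-positive) and 11.28 ± 0.06 (1:1 erbB2-positive). In the 1:1 erbB2-negative fraction, labelled normal, it was above Comma-D by 3.35 (SE 0.19, limma adjusted p = 1.19e-08). Cdh1 was at -1.43 (SE 0.26) and Epcam at -1.87 (SE 0.39) there, while Krt5 was at 1.23 (SE 0.26) and Krt14 at 0.0034 (SE 0.15). Which cells each fraction held was not measured, and fewer cells of a type and less RNA per cell cannot be told apart in bulk RNA.

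The microRNAs of the miR-200 family and miR-205 are the best known repressors of Zeb1 and Zeb2, and their sequences are shown because probe sets of these arrays read their precursors, except that of miR-429, which was not measured here. Mature sequences are from RefSeq (GRCm38.p6), 5′ to 3′, with the seed (bases 2 to 8) in capitals. The first 3 share the seed AAUACUG, the next 2 share AACACUG, and miR-205-5p has the seed CCUUCAU.
miR-200b-3p: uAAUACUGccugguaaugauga
miR-200c-3p: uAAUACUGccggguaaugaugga
miR-429-3p: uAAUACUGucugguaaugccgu
miR-141-3p: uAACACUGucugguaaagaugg
miR-200a-3p: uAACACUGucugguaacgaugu
miR-205-5p: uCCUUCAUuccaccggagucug

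Zeb1 and Zeb2 were highest in Comma-D and lowest in MMTV-neu and the 1:1 erbB2-positive fraction. Zeb1 (probe set 10453678) was at 9.02, 9.03 and 9.02 in Comma-D, at 8.64, 8.81 and 8.80 in the 1:50 erbB2-negative fraction and at 8.04, 8.41 and 8.48 in the 1:1 erbB2-negative fraction. It was at 8.05, 8.61 and 8.38 in the 1:50 erbB2-positive fraction, at 7.32, 7.41 and 7.15 in the 1:1 erbB2-positive fraction and at 7.05, 7.54 and 6.96 in MMTV-neu. The 1:1 erbB2-positive and MMTV-neu arrays overlapped each other and lay under the other 4 groups, and the 1:50 erbB2-positive and 1:1 erbB2-negative arrays overlapped as well. Zeb1 fell by 1.84 (SE 0.16, 3.58-fold) in MMTV-neu against Comma-D (limma adjusted p = 3.17e-08), against -1.37 for the genes of its level.

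Zeb2 (probe set 10482448) had almost the same order. Its values were 8.09, 8.12 and 8.22 in Comma-D, 7.91, 7.77 and 7.53 in the 1:50 erbB2-negative fraction and 7.13, 7.39 and 7.43 in the 1:1 erbB2-negative fraction. They were 7.33, 7.55 and 7.14 in the 1:50 erbB2-positive fraction, 6.32, 6.24 and 6.22 in the 1:1 erbB2-positive fraction and 6.05, 6.25 and 6.19 in MMTV-neu. The last 2 groups overlapped and lay under the medians of their arrays, where background compresses ratios. Centring on the reference genes moved differences the other way, by 1.40 for MMTV-neu minus Comma-D. The deposited falls into these groups are therefore not bounds on their size. Zeb2 fell by 1.98 (SE 0.12, 3.94-fold) in MMTV-neu (adjusted p = 6.26e-10), while the genes of its level in Comma-D had a median difference of 0.0166. Over the 18 arrays the profiles of Zeb1 and Zeb2, each centred on its own mean, differed by a root mean square of 0.169, the smallest of any pair among the 9 genes.

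Snai1 (probe set 10478884), the founding member of the Snail family, moved less than the ZEB factors, and its direction depended on the scaling. It was at 9.64, 9.55 and 9.45 in Comma-D, at 9.42, 9.23 and 9.20 in the 1:50 erbB2-negative fraction and at 8.97, 8.89 and 8.98 in the 1:1 erbB2-negative fraction. It was at 9.06, 8.98 and 8.96 in the 1:50 erbB2-positive fraction, at 8.47, 8.49 and 8.59 in the 1:1 erbB2-positive fraction and at 8.84, 8.55 and 8.62 in MMTV-neu. As deposited it was lower in MMTV-neu than in Comma-D by -0.88 (SE 0.10, adjusted p = 3.42e-07), but 0.20 (adjusted p = 0.19) after quantile normalization and 0.53 (adjusted p = 0.0104) after centring. That deposited fall was smaller than the -1.37 of genes of its level.

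Snai2 (probe set 10433776) differed from Snai1 in its order. Values in Comma-D were 8.85, 8.98 and 8.92, those in the 1:50 erbB2-negative fraction 9.35, 9.71 and 9.15, and those in the 1:1 erbB2-negative fraction 8.66, 9.29 and 9.12. Values in the 1:50 erbB2-positive fraction were 8.69, 9.81 and 9.11, those in the 1:1 erbB2-positive fraction 7.79, 8.12 and 7.48, and those in MMTV-neu 7.26, 6.94 and 6.99. Each of the first 4 groups overlapped with its neighbour in the order of means, but every array of the 1:50 erbB2-negative fraction lay above those of Comma-D. The 1:1 erbB2-positive arrays lay between these 4 groups and MMTV-neu without overlap. Snai2 fell by 1.86 (SE 0.24, 3.62-fold) in MMTV-neu against Comma-D (adjusted p = 1.75e-06), and the call was lost after centring (-0.45, adjusted p = 0.0776).

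Prrx1 (probe set 10359624) had the largest spread of group means among the transcription factors, 3.77 log2 units. It was at 10.15, 10.09 and 10.13 in Comma-D, at 10.10, 9.79 and 9.65 in the 1:50 erbB2-negative fraction and at 8.94, 9.55 and 9.47 in the 1:1 erbB2-negative fraction. It was at 9.21, 9.41 and 9.26 in the 1:50 erbB2-positive fraction, at 6.87, 7.59 and 7.57 in the 1:1 erbB2-positive fraction and at 5.95, 6.71 and 6.41 in MMTV-neu. The 2 lowest groups did not overlap with each other or with any other group. Prrx1 fell by 3.77 (SE 0.21, 13.6-fold) in MMTV-neu (adjusted p = 2.21e-10). Its mean there, 6.35, lay under the medians of those arrays, where background compresses ratios. Centring moved the difference by 1.40, toward a smaller fall, so the deposited fall is not a bound on its size.

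Twist1 (probe set 10395320) and Twist2 (probe set 10348632) did not pass the test in any comparison as deposited. Twist1 ranged from 6.58 to 7.57 over the 18 arrays and Twist2 from 6.64 to 7.52, and in both genes every group overlapped with its neighbour in the order of means. Farther apart in that order, the 1:50 erbB2-positive arrays of Twist1 (6.71 to 6.95) lay under those of Comma-D (7.16 to 7.35) and of the 1:1 erbB2-positive fraction (7.04 to 7.57). Their group means spanned 0.40 and 0.37 log2 units, beside standard deviations within groups of 0.25 and 0.27. In MMTV-neu minus Comma-D the 95% interval was -0.53 to 0.24 for Twist1 and -0.21 to 0.62 for Twist2. After centring on reference genes both were higher in MMTV-neu, by 1.26 (adjusted p = 8.83e-05) and 1.61 (adjusted p = 1.06e-05), close to the 1.40 by which centring moved all genes.

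Vim (probe set 10469322) was near its highest values in 4 of the 6 groups. It was at 12.93, 12.93 and 12.95 in Comma-D, at 12.98, 13.01 and 12.93 in the 1:50 erbB2-negative fraction and at 12.48, 12.96 and 12.93 in the 1:1 erbB2-negative fraction. It was at 12.69, 12.93 and 12.92 in the 1:50 erbB2-positive fraction, at 11.16, 12.05 and 12.27 in the 1:1 erbB2-positive fraction and at 7.83, 8.29 and 8.26 in MMTV-neu. The 1:1 erbB2-positive arrays lay under the first 4 groups and well above every MMTV-neu array. Vim fell by 4.80 (SE 0.21, 28.0-fold) in MMTV-neu against Comma-D (adjusted p = 1.32e-11), the largest difference of the 9 genes, beside -1.37 for genes of its level.

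Cdh2 (probe set 10457644) was the most variable of the 9 genes between arrays of a group, with a standard deviation within groups of 0.59. It was at 9.04, 9.08 and 9.20 in Comma-D, at 9.60, 9.89 and 10.07 in the 1:50 erbB2-negative fraction and at 7.82, 9.62 and 9.64 in the 1:1 erbB2-negative fraction. It was at 8.73, 9.61 and 9.90 in the 1:50 erbB2-positive fraction, at 6.76, 7.72 and 8.18 in the 1:1 erbB2-positive fraction and at 7.33, 7.02 and 6.86 in MMTV-neu. Replicate 1 was the lowest array in each of the 4 sorted groups. Epcam had its lowest value in the same replicate of all 4 sorted groups. At 1:1 it was at 6.52 against 8.04 and 8.41 in the erbB2-negative and 5.97 against 6.93 and 7.61 in the erbB2-positive fraction. At 1:50 it was at 8.91 against 9.21 and 9.37 in the erbB2-negative and 8.65 against 9.27 and 9.19 in the erbB2-positive fraction. Cdh2 fell by 2.04 (SE 0.42, 4.10-fold) in MMTV-neu against Comma-D (adjusted p = 0.000226).

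**Figure D1:**
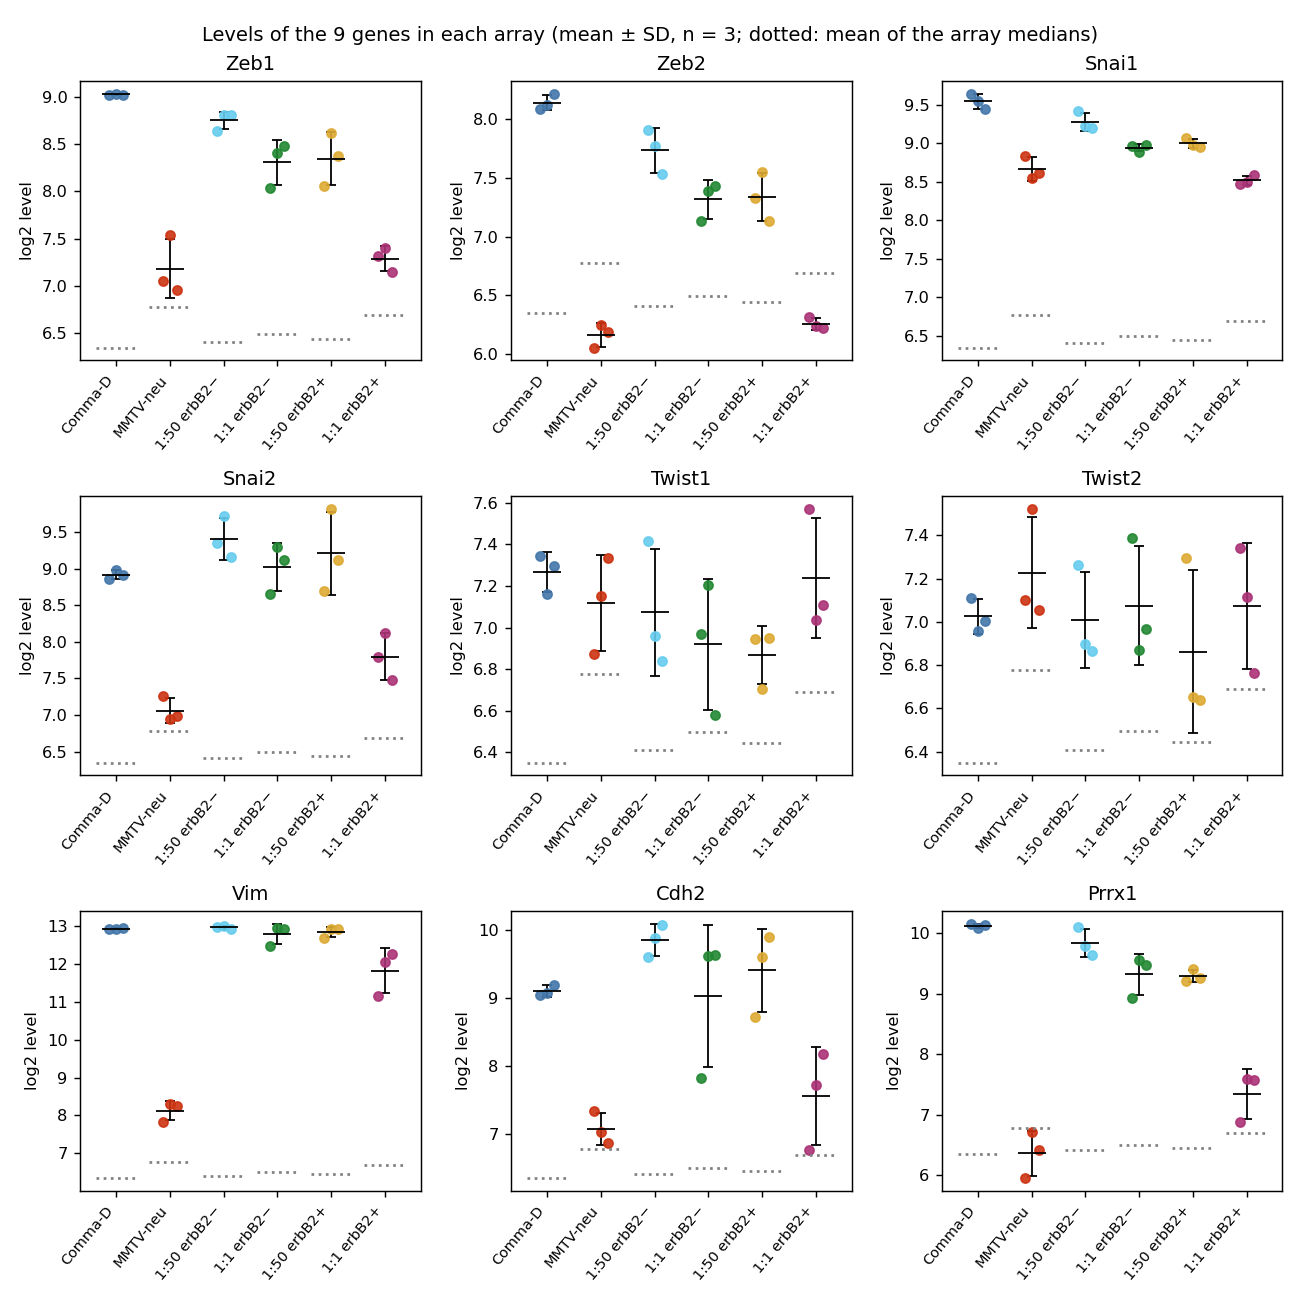
Log2 level of each of the 9 genes (y axis) in every array of the 6 groups (x axis); coloured points are arrays, black bars the mean ± SD (n = 3), and dotted lines the mean of the array medians of a group. Vim stays at 12.48 or above outside the 1:1 erbB2-positive fraction and MMTV-neu, Zeb2 lies under the dotted line in those 2 groups, and each group of Twist1 and of Twist2 overlaps with its neighbour in the order of means.

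Between the unmixed lines, 7 of the 9 genes were lower in MMTV-neu and 0 were higher, at a limma adjusted p under 0.05 over all genes, while 30.4% of all genes were lower and 56.4% higher. The median difference was -1.86 over the 9 genes and 0.40 over all genes. After quantile normalization 6 of the 9 were lower and 0 higher, and after centring 5 were lower and 3 higher, the latter Snai1, Twist1 and Twist2. The falls of Zeb1, Zeb2, Vim, Cdh2 and Prrx1 passed the test under all 3 scalings.

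The 1:50 erbB2-positive fraction was compared with MMTV-neu because its labels set it apart from the tumour line by the absence of phosphorylated erbB2. Of the 9 genes, 7 were higher and 0 lower, beside 25.8% of all genes higher and 57.6% lower. Vim rose by 4.72 (SE 0.21, 26.3-fold), Prrx1 by 2.94 (SE 0.21), Cdh2 by 2.34 (SE 0.42) and Snai2 by 2.15 (SE 0.24). Zeb1 rose by 1.16 (SE 0.16) and Zeb2 by 1.17 (SE 0.12), both near 0 after centring (0.0068 and 0.0168). Snai1 was at 0.33 (adjusted p = 0.00416) as deposited, -0.47 after quantile normalization and -0.82 after centring. The 9 genes then split as 6 higher and 1 lower after quantile normalization, and 4 higher and 3 lower after centring. This comparison shares the MMTV-neu arrays with that of the unmixed lines, so the 2 are not independent.

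The 1:1 erbB2-positive fraction was compared with MMTV-neu, which carries the same labels for erbB2 and its phosphorylated form. Vim was higher by 3.70 (SE 0.21, adjusted p = 3.44e-09) and Prrx1 by 0.99 (SE 0.21, adjusted p = 0.00539), under all 3 scalings. Snai2 was also called, at 0.74 (SE 0.24, adjusted p = 0.0403), giving 3 genes higher and 0 lower beside 4.21% and 14.1% of all genes. The Snai2 call was lost without MMTV-neu replicate 2 (adjusted p = 0.102) or 3 (0.0939), without 1:1 erbB2-positive replicate 1 (0.0626) or 2 (0.162), and after centring (0.123). For Zeb1 the difference was 0.11 with a 95% interval of -0.23 to 0.44, and for Zeb2 it was 0.0936 with an interval of -0.16 to 0.35. Cdh2 differed by 0.48 (95% interval -0.39 to 1.36) and Snai1 by -0.15 (95% interval -0.35 to 0.0543). Whether these genes differ from each other was not tested. RNA from Comma-D cells carried over in the sort and a change in the tumour cells themselves cannot be told apart here.

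Against Comma-D, the same 1:1 erbB2-positive fraction had 7 genes lower and 0 higher, beside 32.5% and 45.8% of all genes. Prrx1 fell by 2.78 (SE 0.21), Zeb2 by 1.89 (SE 0.12), Zeb1 by 1.73 (SE 0.16) and Cdh2 by 1.55 (SE 0.42). Snai2 fell by 1.12 (SE 0.24), and Vim was lower by -1.10 (SE 0.21, adjusted p = 0.000164) as deposited but at 0.0104 after centring. Snai1 was lower by -1.03 (SE 0.10) as deposited and at 0.0871 after centring. Genes in the top 25% of Comma-D levels had a median of -1.23 in this comparison, a larger fall than those of Vim, Snai1 and Snai2. Quantile normalization left 4 of the 9 genes lower and 0 higher, and centring 3 lower and 2 higher.

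The 1:50 erbB2-positive fraction stood close to Comma-D in Vim, Snai2 and Cdh2, with differences of -0.0880 (95% interval -0.53 to 0.36), 0.29 (-0.21 to 0.79) and 0.31 (-0.57 to 1.18). Zeb1, Zeb2, Snai1 and Prrx1 were the 4 genes lower, with 0 higher, beside 4.54% and 1.17% of all genes. They fell by 0.68 (SE 0.16), 0.81 (SE 0.12), 0.55 (SE 0.10) and 0.83 (SE 0.21), against a median of -0.26 for genes at the Comma-D level of Zeb1, Snai1 and Prrx1 and of -0.0449 for genes at the level of Zeb2. Leaving out any Comma-D array or 1:50 erbB2-positive replicate 1 or 3 left 2 genes called, Zeb2 and Snai1. In those 5 fits the adjusted p was 0.0538 to 0.117 for Zeb1 and 0.0718 to 0.108 for Prrx1. Quantile normalization left 1 gene called and centring 0.

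The erbB2-negative fractions, labelled normal, were compared with Comma-D in the same way. At 1:50, 0 genes were called in either direction by limma, 2 of the 9 passed an unadjusted p under 0.05, and 1.08% of all genes were lower and 0.592% higher. Zeb2 was at -0.41 (95% interval -0.66 to -0.15, adjusted p = 0.139), Cdh2 at 0.75 (-0.13 to 1.63) and Vim at 0.0389 (-0.41 to 0.48). At 1:1, Zeb1, Zeb2, Snai1 and Prrx1 were again the 4 genes lower, with 0 higher, beside 20.9% and 14.9% of all genes. Zeb2 fell by 0.83 (SE 0.12, adjusted p = 0.000212), Prrx1 by 0.80 (SE 0.21, adjusted p = 0.00931), Zeb1 by 0.72 (SE 0.16) and Snai1 by 0.60 (SE 0.10), while Vim was at -0.14 (95% interval -0.59 to 0.30). The Prrx1 call was lost without 1:1 erbB2-negative replicate 1 (adjusted p = 0.0595). Quantile normalization left 1 of these calls and centring 0.

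The ratio of the lines was compared within each sorted fraction. In the erbB2-positive fractions, 7 genes were higher at 1:50 than at 1:1 and 0 lower, beside 27.4% and 44.0% of all genes. Prrx1 rose by 1.95 (SE 0.21, 3.86-fold), Cdh2 by 1.86 (SE 0.42), Snai2 by 1.41 (SE 0.24), Zeb2 by 1.08 (SE 0.12), Zeb1 by 1.06 (SE 0.16) and Vim by 1.02 (SE 0.21). After centring, Prrx1, Cdh2 and Snai2 kept their calls, while Zeb1 (0.19), Zeb2 (0.21) and Vim (0.15) lost theirs. Snai1 was at 0.48 as deposited, -0.22 after quantile normalization and -0.38 after centring. After centring Twist1 (-1.24) and Twist2 (-1.08) were lower, a split of 3 higher and 2 lower.

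In the erbB2-negative fractions the same ratio gave smaller differences, with 3 genes higher at 1:50 and 0 lower beside 21.4% and 8.87% of all genes. Zeb1 was higher by 0.44 (SE 0.16, adjusted p = 0.045), Zeb2 by 0.42 (SE 0.12, adjusted p = 0.0202) and Snai1 by 0.34 (SE 0.10, adjusted p = 0.019). When replicate number was a block and only the 12 sorted arrays were fitted, Cdh2 (0.83, adjusted p = 0.015) and Prrx1 (0.53, adjusted p = 0.0407) were called too, 5 genes in all. Neither quantile normalization nor centring kept a call, and Snai1 turned to -0.11 and -0.0454. Counts were 0 without 1:50 erbB2-negative replicate 1 or 1:1 erbB2-negative replicate 1, 1 without 1:50 erbB2-negative replicate 2, and 5 without 1:1 erbB2-negative replicate 3.

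The interaction tests whether the ratio effect differed between the fractions. It was called for Prrx1, at 1.42 (SE 0.30, adjusted p = 0.0184), and for Zeb2, at 0.66 (SE 0.17, adjusted p = 0.0477), both larger in the erbB2-positive fractions, with 2 genes higher and 0 lower beside 2.45% and 0.301% of all genes. It was 0.61 (SE 0.22) for Zeb1, 1.02 (SE 0.33) for Snai2, 0.83 (SE 0.30) for Vim, 1.03 (SE 0.59) for Cdh2 and 0.14 (SE 0.14) for Snai1, none called. With the replicate block in the fit of 12 arrays 5 genes were called, Zeb1, Zeb2, Snai2, Vim and Prrx1, and after centring 0. Leaving out 1 array at a time gave 0 to 6 calls. The 6 came without 1:1 erbB2-negative replicate 1 and 4 came without 1:50 erbB2-positive replicate 1. The count fell to 0 without 1:50 erbB2-negative replicate 2 or 3, 1:1 erbB2-negative replicate 2 or 3, 1:50 erbB2-positive replicate 2 or 1:1 erbB2-positive replicate 1, and to 1 without 1:1 erbB2-positive replicate 2. Without 1:1 erbB2-positive replicate 3 it stayed at 2, Prrx1 and Vim.

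The 2 fractions of each co-culture were then set against each other. At 1:50, 0 genes were called in either direction by limma, beside 0.0100% of all genes higher and 0% lower in the erbB2-positive fraction, and 4 of the 9 passed an unadjusted p under 0.05. Prrx1 was at -0.56 (95% interval -0.998 to -0.12), Zeb1 at -0.40 (-0.74 to -0.0664), Zeb2 at -0.40 (-0.66 to -0.15) and Snai1 at -0.28 (-0.48 to -0.0781). At 1:1, 7 genes were lower in the erbB2-positive fraction and 0 higher, beside 21.0% and 35.2% of all genes. Prrx1 fell by 1.98 (SE 0.21, 3.94-fold), Snai2 by 1.22 (SE 0.24), Zeb2 by 1.06 (SE 0.12), Zeb1 by 1.02 (SE 0.16) and Vim by 0.96 (SE 0.21). Cdh2 fell by 1.47 (SE 0.42, adjusted p = 0.0079), a call lost without 1:1 erbB2-negative replicate 3 (0.0515) or 1:1 erbB2-positive replicate 1 (0.0554). Snai1 was at -0.42 as deposited, 0.0746 after quantile normalization and 0.28 after centring. After centring 2 genes were lower, Cdh2 and Prrx1, and 2 higher, Twist1 and Twist2.

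**Figure D2:**
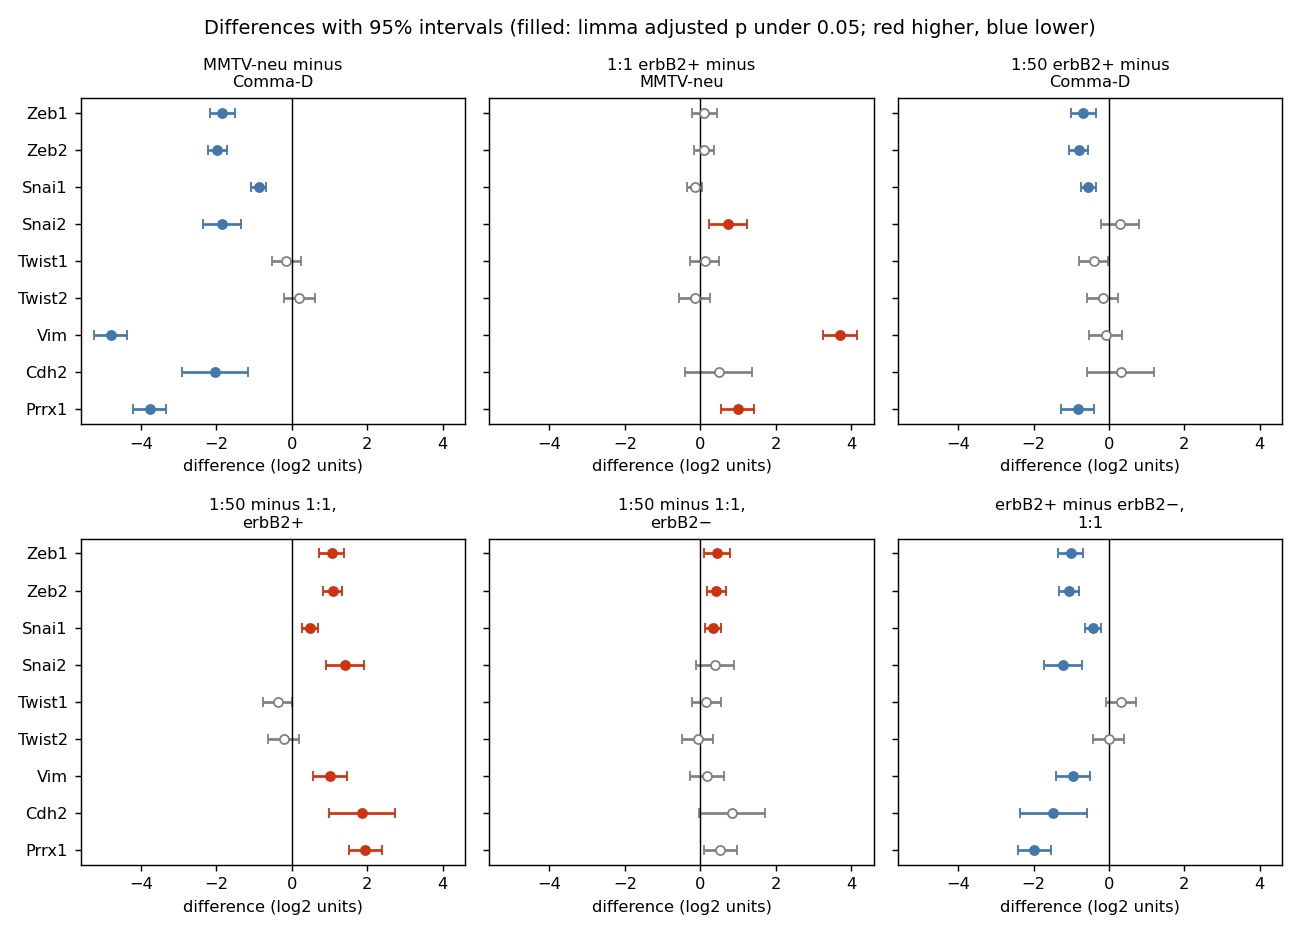
Difference between groups in log2 units (x axis) for the 9 genes (y axis) in 6 comparisons, as deposited; points are limma estimates, bars 95% intervals, and filled points passed an adjusted p under 0.05 (red higher, blue lower). Vim at 3.70 stands apart when MMTV-neu is subtracted from the 1:1 erbB2-positive fraction, where Zeb1, Zeb2 and Snai1 have intervals that include 0.

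The place of each sorted fraction on the way from Comma-D (0%) to MMTV-neu (100%) differed from gene to gene. In the 1:1 erbB2-positive fraction, on the log2 scale, Vim stood at 23.0% ± 12.2 (SD, n = 3), Snai2 at 60.4% ± 17.4, Prrx1 at 73.8% ± 10.9 and Cdh2 at 76.2% ± 35.7. Zeb1 stood at 94.2% ± 7.0, Zeb2 at 95.3% ± 2.7 and Snai1 at 116.9% ± 7.2. The array ranges of Vim (13.8% to 36.8%) and of Zeb2 (92.2% to 97.2%) did not overlap. On the linear scale, taken from the group means, the same fraction stood at 55.5% for Vim, 74.6% for Snai2, 87.2% for Cdh2, 92.2% for Prrx1, 97.0% for Zeb1 and 97.7% for Zeb2. These percentages are descriptions with no test, and background in low signals shortens the scale of each gene by an unknown amount. They were taken from the deposited values alone and depend on the scaling. The line difference of Snai1, by which its position is divided, changed sign after quantile normalization and after centring, so that position is not stable. Vim in this fraction was lower than in Comma-D as deposited but not after centring. At the other end, Vim in Comma-D stood at the 99.97th percentile of its arrays, and whether its signal there is near a ceiling, which would draw the high groups together, was not tested.

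In the 1:50 erbB2-positive fraction the log2 positions were 1.83% ± 2.80 for Vim, 22.1% ± 2.8 for Prrx1, 36.8% ± 15.3 for Zeb1 and 40.7% ± 10.4 for Zeb2. Snai2 stood at -15.6% ± 30.5 and Cdh2 at -15.1% ± 30.1, beyond Comma-D. In the 1:50 erbB2-negative fraction, Snai2 stood at -26.3% ± 15.3 and Cdh2 at -36.8% ± 11.7, where every array lay on the far side of Comma-D, although neither gene was called there. Twist1 and Twist2 have no usable position, because neither was called between the lines as deposited. The summed linear level of 6 basal markers moved in the same direction as Snai2 and Cdh2. It was 9680 to 9842 in Comma-D and 13131 to 15572 in the 1:50 erbB2-negative fraction, 0 of 6 under the array medians. Of the 6, 2 were called higher there, Krt5 and Krt14, and 0 lower, beside 0.592% and 1.08% of all genes. The part of these markers in the values of Snai2 and Cdh2 was not tested.

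**Figure D3:**
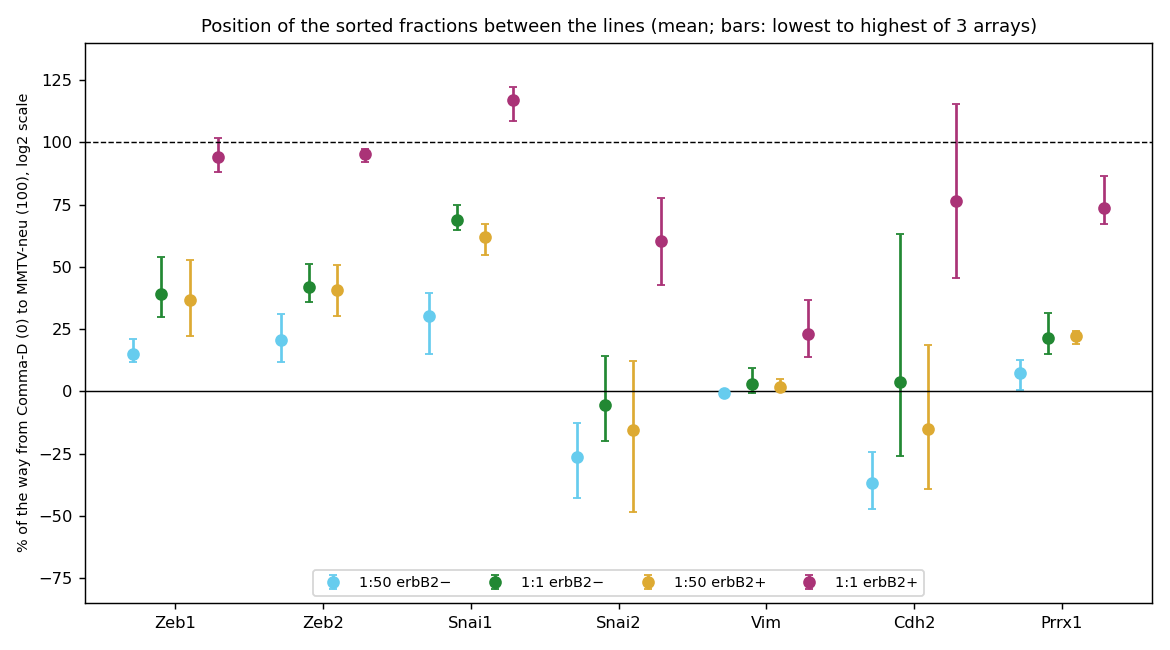
Position of the 4 sorted fractions between the lines, in percent of the log2 difference from Comma-D (0) to MMTV-neu (100), for the 7 genes that differed between the lines as deposited; points are means and bars the lowest to highest of 3 arrays. In the 1:1 erbB2-positive fraction Vim sits at 23.0% and Zeb1 and Zeb2 at 94.2% and 95.3%.

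Genes with the most similar profiles were found by the root mean square difference between profiles centred on their own means over the 18 arrays. Those nearest to Vim were Sparc (0.227), a secreted matrix protein, S100a11 (0.233) and Igfbp7 (0.240). Those nearest to Prrx1 were Timp1 (0.158), an inhibitor of metalloproteinases, Extl3 (0.200) and Adgrf5 (0.215). Zeb1 was nearest to Dhrs7 (0.129), Ubl5 (0.130) and Ifnar1 (0.143), and Zeb2 to Gnao1 (0.131), Abhd4 (0.144) and Dhrs7 (0.153). Snai2 was nearest to the laminin chain Lamc1 (0.201), Ccn2 (0.207) and Moxd1 (0.223), and Cdh2 to Mlkl (0.237), Adgrg6 (0.253) and Dpysl2 (0.267). For Snai1 they were Dcun1d4 (0.108), Tifa (0.122) and Tmem185a (0.127), for a gene whose own profile varied by 0.356. Twist1 (Ror1, 0.162) and Twist2 (Man1c1, 0.158) varied by only 0.250 and 0.242, so closeness says little there.

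The mesenchymal effector genes are matrix, adhesion and contractile genes. Of 33 measured, 26 were lower and 5 higher in MMTV-neu than in Comma-D, beside 30.4% and 56.4% of all genes, with a median of -2.46 beside 0.40. Fn1, encoding fibronectin, fell by 6.05 (SE 0.17), Postn by 5.82 (SE 0.29), Sparc by 5.10 (SE 0.14) and the collagen crosslinking enzyme Lox by 4.70 (SE 0.26). Against MMTV-neu, 13 were higher and 0 lower in the 1:1 erbB2-positive fraction, beside 4.21% and 14.1% of all genes, with Fn1 up by 4.48 (SE 0.17), Postn by 4.03 (SE 0.29), Sparc by 3.89 (SE 0.14) and Acta2 by 2.96 (SE 0.22). That comparison had 16 higher and 1 lower after quantile normalization, and 14 higher and 1 lower after centring. Lower remained the more frequent direction between the lines after quantile normalization (23 lower, 6 higher) and after centring (18 lower, 10 higher).

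The upstream pathway was read from 21 genes of TGF-beta signalling, the best known inducer of the Snail and ZEB factors. In MMTV-neu against Comma-D, 18 were lower and 1 higher, beside 30.4% and 56.4% of all genes. The ligands Tgfb3 and Tgfb2 fell by 3.40 (SE 0.25) and 2.98 (SE 0.30), and the receptors Bmpr1a and Tgfbr2 by 2.96 (SE 0.35) and 2.26 (SE 0.15). The list had 12 lower and 4 higher after quantile normalization, and 7 lower and 8 higher after centring. Against MMTV-neu, the 1:1 erbB2-positive fraction had 2 higher and 1 lower, beside 4.21% and 14.1% of all genes, with Tgfb3 higher by 1.32 (SE 0.25, adjusted p = 0.00275) and Smad3 lower at -0.69 (SE 0.11, adjusted p = 0.00103). Between the erbB2-positive fractions, Tgfb2 was higher at 1:50 than at 1:1 by 2.25 (SE 0.30), among 17 higher and 2 lower beside 27.4% and 44.0% of all genes. That split was 10 higher and 3 lower after quantile normalization, and 6 and 6 after centring.

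The relatives of Vim and Cdh2 were called in shares near those of all genes, 56.4% higher and 30.4% lower. Of 18 other intermediate filament genes 12 were higher and 5 lower in MMTV-neu, where Krt14 fell by 3.55 (SE 0.15), Krt5 fell by 2.06 (SE 0.26), Krt8 rose by 3.93 (SE 0.19) and the lamin Lmnb1 by 1.46 (SE 0.15). The basal keratins Krt14 and Krt5 were, with Vim, higher in the 1:1 erbB2-positive fraction than in MMTV-neu, by 2.26 (SE 0.15) and 1.96 (SE 0.26). Of 10 other cadherins 6 were higher and 3 lower between the lines, among them Cdh13 at -1.66 (SE 0.15), Cdh15 at 1.11 (SE 0.13) and Cdh6 at 1.04 (SE 0.13). Quantile normalization gave 10 higher and 3 lower filament genes and 5 higher and 4 lower cadherins, and centring gave 16 and 2, and 8 and 1.

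Corepressors and partners of these factors, such as the deacetylase Hdac2 and the E-protein Tcf12, were lower for 15 and higher for 2 of 20 in MMTV-neu against Comma-D, beside 30.4% and 56.4% of all genes. Their median was -1.18, beside -1.17 for the reference genes. The counts were 8 lower and 7 higher after quantile normalization, and 3 lower and 9 higher after centring. Hdac2 fell by 2.42 (SE 0.23) and Tcf12 by 1.87 (SE 0.19) as deposited. Of 16 other transcription factors of the transition 8 were lower and 6 higher, beside the same shares of all genes. The forkhead factor Foxc1 fell by 2.99 (SE 0.21), Tcf4 fell by 2.86 (SE 0.16), Sox9 fell by 2.70 (SE 0.22) and Prrx2, the closest relative of Prrx1, fell by 1.76 (SE 0.15). The split was 5 and 5 after quantile normalization, and 3 lower against 9 higher after centring.

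Epithelial genes that these factors repress were called in both directions. Of 31 measured, 14 were higher and 11 lower in MMTV-neu, not far from the 56.4% and 30.4% of all genes, with a median of 0.10 beside 0.40. Krt8 rose by 3.93 (SE 0.19), while Epcam, a cell adhesion molecule of epithelia, fell by 3.65 (SE 0.39), Jup, a junction protein, fell by 2.63 (SE 0.22) and Cdh1, encoding E-cadherin, fell by 2.29 (SE 0.26). After quantile normalization the list had 17 higher and 8 lower, and after centring 24 higher and 3 lower. The falls of Epcam and Cdh1 passed the test after quantile normalization and after centring as well. Cdh1 and Cdh2 thus both fell in MMTV-neu. Between the erbB2-positive fractions Epcam and Cdh1 were both higher at 1:50 than at 1:1, by 2.20 (SE 0.39) and 1.87 (SE 0.26), in the same direction as Cdh2 and Vim.

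**Figure D4:**
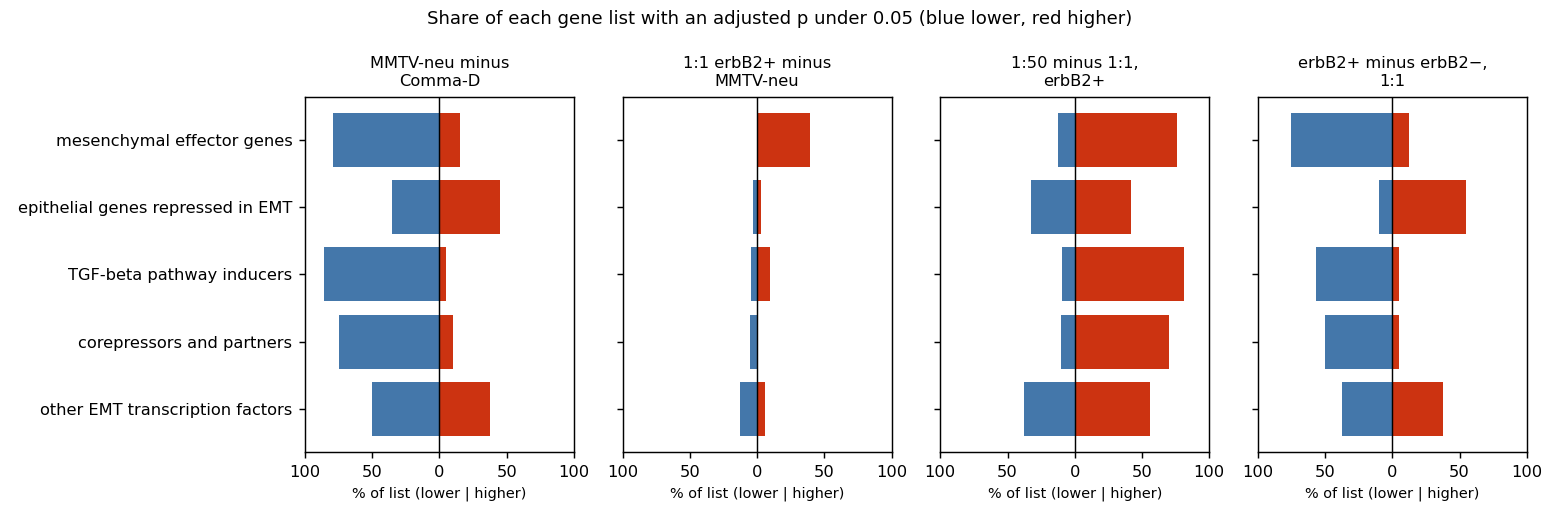
Share of the measured genes of 5 lists (y axis) that passed an adjusted p under 0.05 in 4 comparisons as deposited, in percent, lower to the left in blue and higher to the right in red. The mesenchymal effector genes have 26 of 33 lower between the lines, while the epithelial genes are split, 14 higher and 11 lower of 31.

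Probe sets of the microRNA precursors had low signal. All 5 measured were higher in MMTV-neu than in Comma-D as deposited: Mir200c by 1.49 (SE 0.18), Mir205 by 1.07 (SE 0.17), Mir200a by 0.85 (SE 0.15), Mir141 by 0.76 (SE 0.10) and Mir200b by 0.46 (SE 0.11). After quantile normalization 2 of 5 kept a call, Mir200c (1.07) and Mir205 (0.46), and Mir200b turned to -0.26. After centring all 5 were called higher, from 1.86 for Mir200b to 2.90 for Mir200c, so the scalings disagreed. Over its 3 arrays each, Mir200c was at 5.34, 5.24 and 5.46 in Comma-D against 6.29, 6.90 and 7.32 in MMTV-neu, around the medians of those arrays. Mir141, Mir200b and Mir205 had means under the array medians in all 6 groups, and the all-gene median itself rose by 0.40 between the lines. Mir200c in the 1:1 erbB2-positive fraction was at 6.65, 6.40 and 6.57, above both erbB2-negative fractions and the 1:50 erbB2-positive fraction. Against the 1:1 erbB2-negative fraction it rose by 0.77 (SE 0.18, adjusted p = 0.00292). That call was lost after quantile normalization (0.51, adjusted p = 0.131) and kept after centring (1.48, adjusted p = 0.00014). These probe sets read precursor transcripts, so they give no level of the mature microRNAs shown above.

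**Figure D5:**
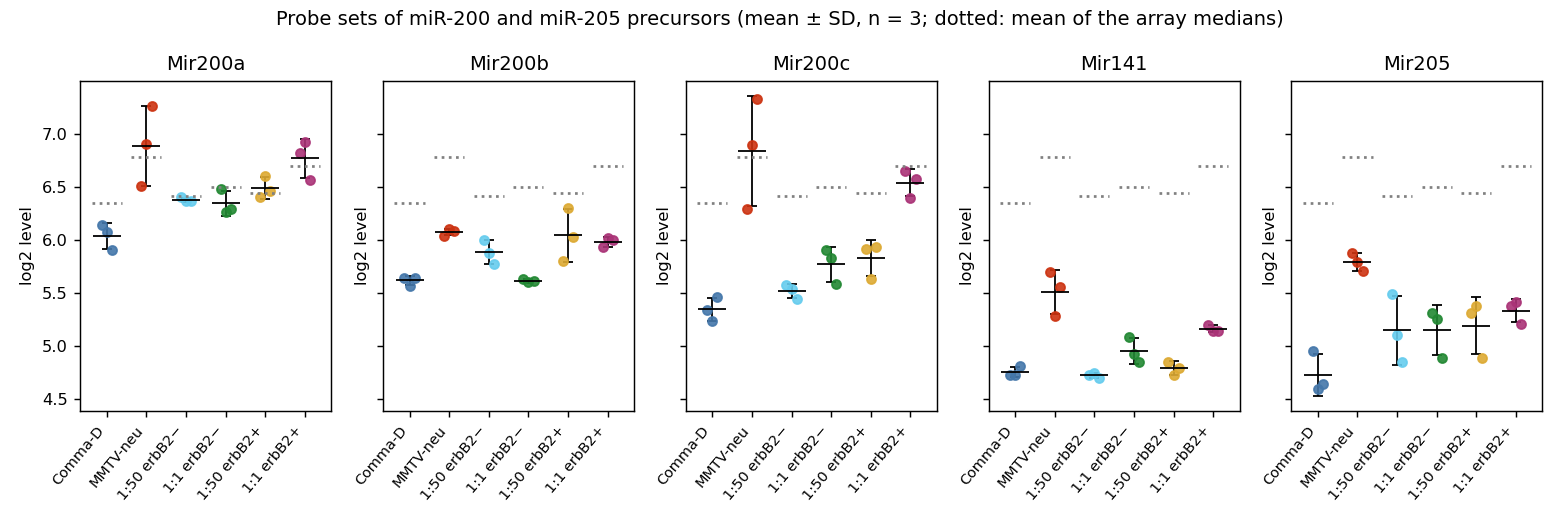
Log2 level (y axis) of probe sets for 5 microRNA precursors in every array of the 6 groups (x axis); points are arrays, black bars the mean ± SD (n = 3), dotted lines the mean of the array medians. Mir200c is lowest in Comma-D at 5.34 and highest in MMTV-neu at 6.84, and the means of Mir141, Mir200b and Mir205 lie under the dotted line in all groups.

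Snail and ZEB factors bind the E-box letters CAGGTG, read CACCTG on the other strand, so promoters were searched for both, and those of 3 genes are shown because they hold matches. The window is the 250 bases before the RefSeq start (GRCm38.p6, 5′ to 3′ along the gene), with matches in capitals. Of 32851 promoters of that length in the table, 17.2% held at least 1 match and 2.06% at least 2. Of the 9 genes, 6 had a promoter in the table and 1, Snai1, had a match, beginning 126 bases before its start. Epcam had 2, at 187 and 19 bases, and Crb3, a polarity gene named after its values were seen, had 3 in its first promoter, at 118, 63 and 7 bases. A match is a description of letters, not a site.
Snai1, chr2:167537945-167538194, plus strand: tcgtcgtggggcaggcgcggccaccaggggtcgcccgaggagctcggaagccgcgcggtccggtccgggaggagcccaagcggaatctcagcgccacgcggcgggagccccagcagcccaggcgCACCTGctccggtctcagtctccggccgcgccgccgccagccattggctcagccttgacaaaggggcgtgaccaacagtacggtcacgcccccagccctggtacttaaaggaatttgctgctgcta
Epcam, chr17:87635729-87635978, plus strand: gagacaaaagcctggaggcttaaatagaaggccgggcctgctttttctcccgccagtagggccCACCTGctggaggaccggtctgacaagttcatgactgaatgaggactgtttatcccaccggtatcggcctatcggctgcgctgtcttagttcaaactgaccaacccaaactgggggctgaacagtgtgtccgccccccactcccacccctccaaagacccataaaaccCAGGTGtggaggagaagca
Crb3, chr17:57061951-57062200, plus strand: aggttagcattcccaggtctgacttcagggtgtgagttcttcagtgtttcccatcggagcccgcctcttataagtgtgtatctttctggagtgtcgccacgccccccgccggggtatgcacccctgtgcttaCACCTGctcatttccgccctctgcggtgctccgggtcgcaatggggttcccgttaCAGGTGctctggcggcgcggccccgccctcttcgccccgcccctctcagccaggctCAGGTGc

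The levels of these 2 epithelial genes are given as a description. Epcam fell by 3.65 (SE 0.39) in MMTV-neu against Comma-D, while Crb3 was at 0.48 (SE 0.13, adjusted p = 0.0022), near the median of 0.40 over all genes. The Crb3 call was lost after quantile normalization (0.25, adjusted p = 0.0922) and kept after centring (1.89, adjusted p = 3.08e-08). In the 1:1 erbB2-positive fraction against the 1:1 erbB2-negative fraction, Crb3 rose by 0.73 (SE 0.13, adjusted p = 0.000438) and Epcam was at -0.82 (95% interval -1.65 to 0.00853). Crb3 lay near the array medians throughout, with group means of 6.45 to 7.18.

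Markers of fibroblasts were measured beside the 9 genes. The summed linear level of 11 fibroblast markers was 4952 to 5170 in Comma-D, 2840 to 4253 and 2448 to 3734 in the 1:50 and 1:1 erbB2-negative fractions, 2827 to 3970 and 1717 to 2030 in the erbB2-positive ones, and 1677 to 1834 in MMTV-neu. The sum is led by its brightest genes: of the 11, 7 were higher and 4 lower in MMTV-neu than in Comma-D, beside 56.4% and 30.4% of all genes. In the 1:50 erbB2-negative fraction against Comma-D 1 was higher and 2, Dcn and Pdgfra, were lower, beside 0.592% and 1.08% of all genes. Of the 11, 5 or 6 lay under the array medians in every array of each group. Dcn, a defining fibroblast proteoglycan, was at 8.48 ± 0.11 in Comma-D and at 5.06 to 5.46 in the means of the sorted fractions. It fell by 3.41 (SE 0.16) in the 1:50 erbB2-negative fraction against Comma-D. Pdgfra fell by 1.93 (SE 0.35) in that comparison. Dcn fell by 2.70 (SE 0.16) in MMTV-neu against Comma-D. Against MMTV-neu, Dcn was lower in the 1:50 erbB2-positive fraction, at -0.71 (SE 0.16, limma adjusted p = 0.000613). That difference was -0.13 (adjusted p = 0.387) after quantile normalization and -1.87 (adjusted p = 4.23e-07) after centring. In the 1:1 erbB2-positive fraction against MMTV-neu Dcn was at -0.32 (SE 0.16, adjusted p = 0.165). The part of these markers in the levels of the 9 genes was not tested. Of 9 endothelial markers 6 to 9, and of 8 macrophage and leukocyte markers 5 to 7, lay under the array medians in every array of a group.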

How the data were processed

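RNA of 18 samples in 6 groups of 3 had been hybridised to mouse gene arrays. Per the submitters' processing notes, RMA, limma and R 3.1.2 were used, and what was deposited is log2 intensity. No source used here states a filter on probe sets. Of 35556 probe sets 21789 had a single gene in the annotation, 21698 of these matched RefSeq (GRCm38.p6) and 19938 genes were tested. Groups and replicate numbers came from the sample titles. Precision is limited by the number of arrays, since arrays have no read depth.

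Two-sided tests used lmFit and eBayes of limma 3.58.1 (R 4.3.3), in 1 fit of 18 arrays with 12 residual degrees of freedom and no filter. A call needed an adjusted p (Benjamini-Hochberg, each comparison's full gene set) under 0.05. The script was tested on simulated data. The 9 genes, the lists, the comparisons and the alternatives were chosen with earlier results of these data known. Besides the 9 genes, the text names the 4 largest differences of a list, the 3 nearest profiles of each gene, microRNA precursors and fixed check genes. Crb3 was added after its values were seen.

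Whether replicate numbers pair samples was checked by correlating, across genes, the deviations of same-numbered arrays from their group means. The correlation was over 0.1 in every pair for the 1:50 with the 1:1 fractions of the same sort (0.15 to 0.52 erbB2-positive, 0.22 to 0.43 erbB2-negative) and for the 2 fractions of a co-culture (0.31 to 0.70 at 1:50, 0.22 to 0.63 at 1:1). It was -0.26 to 0.25 with either unmixed line. Some arrays with different numbers correlated more than those with the same number. Replicate 2 of the 1:1 erbB2-negative fraction had 0.44 with replicate 3 of the 1:1 erbB2-positive fraction and 0.22 with replicate 2. Replicate 2 of the 1:50 erbB2-positive fraction had 0.40 with replicate 3 of the 1:1 erbB2-positive fraction and 0.15 with replicate 2. The check therefore does not settle how replicates 2 and 3 pair in these comparisons. The main estimates and p-values, also those among fractions, came from the fit without pairing. Pairing entered only in the alternatives with a replicate block. The interaction also pairs fractions that share neither co-culture nor sort. For the 1:50 erbB2-negative with the 1:1 erbB2-positive fraction the lowest value was 0.0737. For the 1:1 erbB2-negative with the 1:50 erbB2-positive fraction the range was 0.57 to 0.85.

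Alternatives were quantile normalization, centring on 10 reference genes, dropping the 40% of genes with the lowest means, averaging all probe sets of a gene, trend and robust priors, array weights, a fit of the compared groups only, a replicate block and leaving out each array. A fit without MMTV-neu and a block in the 12 co-culture arrays were added after the data were seen.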

Additional observations from a re-analysis of the deposited data

Results flagged for a closer look

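Prrx1 and Zeb2 had an effect of the co-culture ratio that differed between the sorted fractions by the interaction test. For Prrx1 the difference of 1:50 minus 1:1 was 1.95 in the erbB2-positive and 0.53 in the erbB2-negative fractions, an interaction of 1.42 (limma adjusted p = 0.0184). For Zeb2 these were 1.08 and 0.42, an interaction of 0.66 (limma adjusted p = 0.0477). After centring on reference genes they were 0.94 (adjusted p = 0.0700) and 0.18 (adjusted p = 0.559). Leaving out single arrays cost Prrx1 its call in 6 of 12 fits, with values of 1.18 to 1.61, and Zeb2 in 8 of 12, with values of 0.56 to 0.76.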

How the results depend on the processing

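Of 108 pairs of gene and comparison 51 were called. After quantile normalization 11 pairs lost their call and 5 reversed, and after centring 25 lost and 7 gained one, with 10 reversals. Snai1 reversed in MMTV-neu minus Comma-D (0.204 with quantile normalization, 0.526 centred), in the 1:50 erbB2-positive fraction against MMTV-neu (-0.472 and -0.823), in 1:50 minus 1:1 of the erbB2-positive (-0.217 and -0.384) and erbB2-negative fractions (-0.111 and -0.0454), in the 1:1 fractions (0.0746 and 0.283), and, centred, in the 1:1 erbB2-positive fraction minus Comma-D (0.0871). Centring also reversed Twist1 in MMTV-neu (1.26) and the 1:1 erbB2-positive fraction (1.09) minus Comma-D, Vim in the latter (0.0104) and Twist2 between the 1:1 fractions (0.705). Array weights, whose fit stopped before its tolerance, added 23 calls and cost 0, and reversed Twist2 there (0.219) and Cdh2 in the 1:1 erbB2-negative fraction minus Comma-D (0.530).

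Counts of genes called moved by over 1.5 times as follows. Against Comma-D, the 4 of the 1:50 erbB2-positive fraction became 1 (quantile), 0 (centred), 7 (array weights) and 2 to 4 without single arrays. The 7 of the 1:1 erbB2-positive fraction became 4 (quantile). The 0 of the 1:50 erbB2-negative fraction became 5 (array weights) and 1 (compared groups only). The 4 of the 1:1 erbB2-negative fraction became 1 (quantile) and 0 (centred). For 1:50 minus 1:1 of the erbB2-negative fractions, 3 became 0 (quantile, centred and compared groups only), 5 (replicate block in 12 arrays) and 0 to 5 without single arrays. For the fractions of the 1:50 co-culture, 0 became 6 (array weights), and for those at 1:1, 7 became 4 (centred). For the interaction, 2 became 4 (replicate block), 5 (block in 12 arrays), 0 (centred and compared groups only), 1 (trend and robust priors, and without MMTV-neu), 7 (array weights) and 0 to 6 without single arrays. The cause was not tested.

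The replicate block in all 18 arrays added 4 calls and lost 0. The block in 12 arrays added 5 and lost 0. Leaving out the lowest 40% of genes cost 1 call and added 1. Averaging all probe sets of a gene changed 0 of 108 pairs, since each of the 9 genes has 1 probe set, and for the same reason other probe sets could not be tried. Genes near or under the array medians, such as Zeb2 and Prrx1 in MMTV-neu, have differences that background limits, and 3 arrays a group limit the rest.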
